A study of Pongo abelii with 6 samples.

Results

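The genes described here are the protein-coding translation factors and aminoacyl-tRNA synthetases of the Sumatran orangutan, Pongo abelii, with their modifying enzymes and scaffold proteins. They were chosen by symbol alone: genes named for initiation factors eIF1 to eIF6, elongation factors eEF1 and eEF2, release factors (ETF1, GSPT1, GSPT2), synthetases and AIMP scaffold proteins. The orangutan gene table holds 106 such genes, and 42 of them had at least 1 transcript in the expression table that could be paired with their symbol, among 15205 genes paired in all. That is 39.6% of the set, against 53.7% of all protein-coding genes in the gene table. RNA came from 2 lines of iPSCs, that is, somatic cells returned by reprogramming to pluripotency. Dokana and Djasinga each gave 3 libraries, made from total RNA after ribosomal RNA was removed. Cells of both lines grew on Matrigel in StemMACS iPS-Brew with 1 uM IWR1 and 0.5 uM CHIR, small molecules that act on Wnt signalling, for sequential passages. Each group is a single line, and the libraries are tied to passages of its culture, so SDs and p-values measure the spread between passages. A treatment label calls the cells differentiated, against the cell type label and the protocols. The lists of markers gave these levels. Of 8 pluripotency markers, 7 were paired, summing to 400 to 499 TPM in Dokana and 291 to 368 TPM in Djasinga (NANOG 78.3 ± 21.1 and 49.9 ± 21.1 TPM, SD, n = 3). The 4 endoderm and 3 trophoblast markers summed to at most 0.142 and 0.0504 TPM in a library. Markers of 2 other lineages were low but present. The 3 paired neuroectoderm markers summed to 4.35 to 7.0 TPM, most of it POU3F1 at 4.92 ± 1.27 and 4.27 ± 1.68 TPM, with PAX6 near 0. The 4 mesendoderm markers summed to 2.79 to 4.94 TPM, led by CER1 at 3.08 ± 0.329 and 1.95 ± 0.0843 TPM. MIXL1 was at 1.03 ± 0.327 and 0.869 ± 0.175 TPM, while TBXT and EOMES were near 0, at most 0.0574 and 0.172 TPM in a library. Of the 6 paired fibroblast markers, COL3A1, LUM and DCN were each under 0.1 TPM in every library, COL1A2 was at 3.02 ± 0.522 and 3.21 ± 1.33 TPM, and TWIST2 at 5.66 ± 0.542 and 3.35 ± 0.331 TPM. The remaining one, THY1, which primed pluripotent cells also carry, was at 61.3 ± 11.1 and 40.8 ± 16.7 TPM. The part of such cells in the results was not tested.

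Translation starts when the small ribosomal subunit, loaded with initiator tRNA by eIF2 and held by eIF3, is recruited to the capped end of an mRNA by the eIF4 proteins and scans to the start codon. Elongation factors then deliver charged tRNAs and move the ribosome, and release factors free the finished protein at a stop codon. Each tRNA is charged by a synthetase for its amino acid. Mammalian cells keep separate nuclear-encoded synthetases for the cytosol and, in most cases, for the mitochondrion. Pluripotent cells are known to keep protein synthesis low compared with their differentiated progeny.

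Levels are given in TPM, a length-corrected share of a library's transcripts, summed over the transcripts paired with a symbol. These sums are partial. The 42 genes had 66 of the 217 transcripts the gene table lists for them, and assembled transcripts without a symbol held 71.7% to 81.2% of each library. A low value therefore need not mean that a gene was silent, and the 64 genes without a paired transcript, such as EEF1A1, EEF2, EIF4A1 and EIF2S1, were not analysed here. Read depth cannot be had from TPM and is unknown here. In bulk RNA a lower level per cell and fewer cells with the RNA cannot be told apart. Where near-identical copies of a gene exist, as for GSPT2 (a relative of GSPT1) and EIF4A2 (a relative of EIF4A1), the authors' quantification could have split reads among them, and such values are uncertain.

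The 42 genes together made up 1138 to 1494 TPM of a Dokana library and 921 to 1098 TPM of a Djasinga library. Their median level over 6 libraries was 14.9 TPM, against 0.806 TPM for the 10763 protein-coding genes detected. Of the 42, 40 lay above that median gene and 15 in the top 5% of those genes. By mean level, 7 genes were at 50 TPM or more, 21 at 10 to 50 TPM, 12 at 1 to 10 TPM and 2 under 1 TPM. EIF4A2 stood at the top of the order and its libraries did not overlap with those of EIF3C, the next gene. Among 41 neighbours in the order of levels, 38 overlapped in their library values, so the order is clear only at EIF4A2, below WARS2 and below RARS2.

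**Figure D1:**
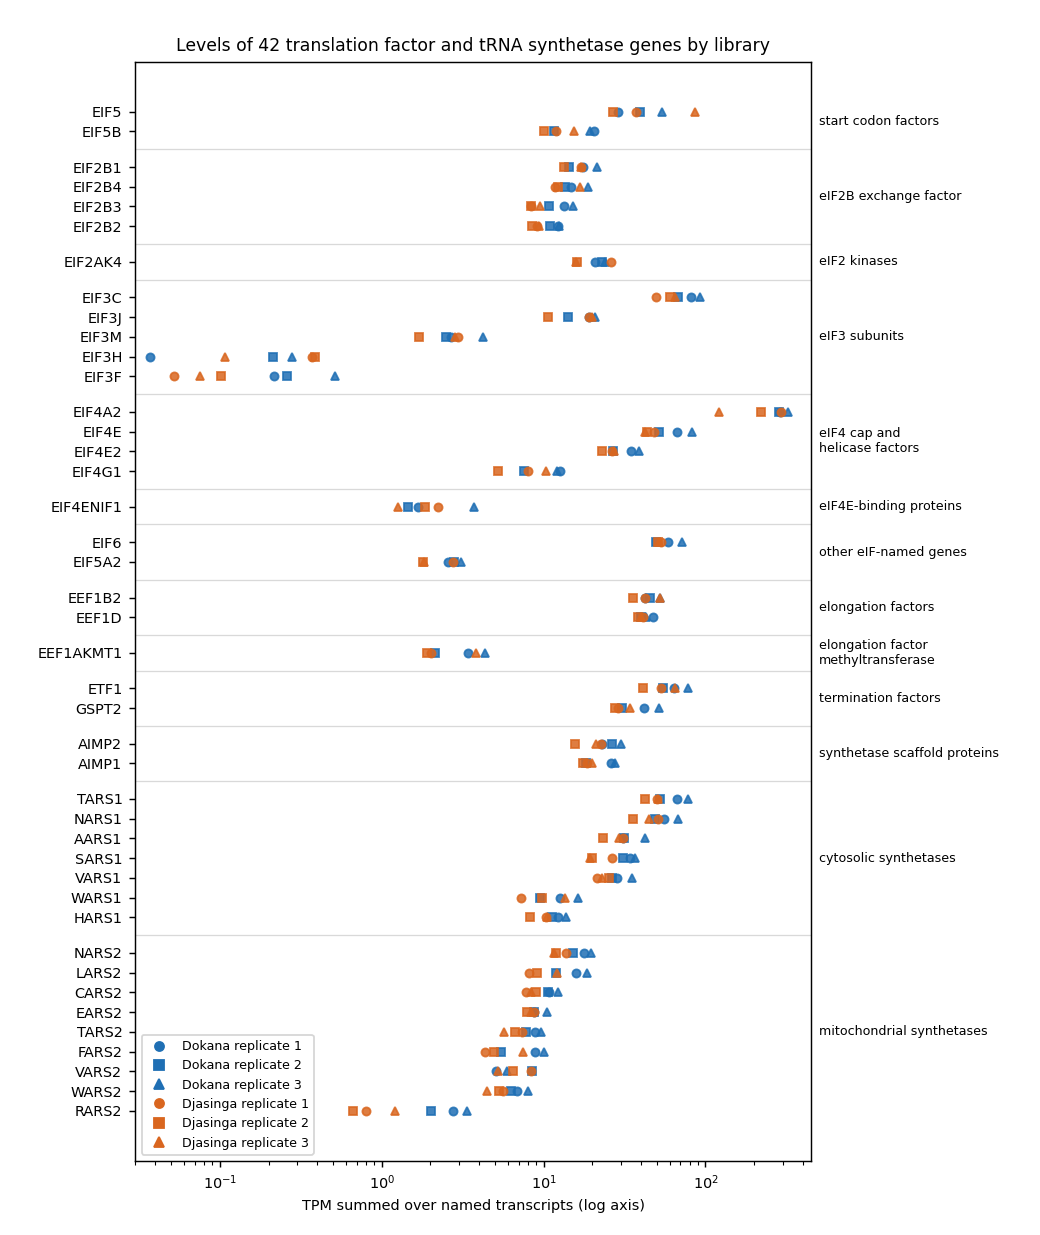
TPM (log axis) of the 42 measured genes, grouped by role. Each point is a library, blue for Dokana and orange for Djasinga, with the replicate number as its shape. EIF4A2 is highest at 121 to 324 TPM, and EIF3H and EIF3F lie under 1 TPM.

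Among the eIF4 factors, which bring the ribosome to the capped mRNA, the helicase EIF4A2 was far above the rest. It was at 289, 285 and 324 TPM in the Dokana libraries, in replicate order here and throughout, against 291, 221 and 121 TPM in Djasinga. The lines overlapped, and the low value of Djasinga replicate 3 was 0.429 times the mean of the other 5 libraries. EIF4A2 alone held 12% to 26.5% of the summed TPM of the 42 genes. EIF4E, the cap-binding protein, was at 66.8, 51.5 and 83 TPM in Dokana against 48.2, 43.5 and 42.6 TPM in Djasinga, with every Djasinga library below every Dokana library. Its relative EIF4E2, a cap-binding protein that represses translation of some mRNAs, was lower at 33.5 ± 6.05 and 25.6 ± 2.22 TPM (SD, n = 3). EIF4G1, the scaffold that joins EIF4E to the helicase, was at 10.7 ± 2.75 and 7.88 ± 2.58 TPM, from 2 of the 17 transcripts listed for it. EIF4ENIF1, which carries EIF4E into the nucleus and into P-bodies, was lowest of this group at 2.28 ± 1.25 and 1.79 ± 0.489 TPM.

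eIF3 is a complex of many subunits, and the summed TPM of the 5 of its genes with a paired transcript did not share a level. These sums are partial, so the part of unpaired transcripts in the distances between subunits was not tested. EIF3C, a core subunit, was at 81.8, 67.4 and 92.8 TPM in Dokana against 49.7, 60.4 and 64.6 TPM in Djasinga. EIF3J, a loosely bound subunit, was at 18.0 ± 3.41 and 16.6 ± 5.19 TPM, and EIF3M at 3.13 ± 0.942 and 2.5 ± 0.689 TPM. EIF3F stood at 0.217, 0.259 and 0.512 TPM in Dokana against 0.0522, 0.102 and 0.0757 TPM in Djasinga. EIF3H ranged from 0.0371 to 0.387 TPM over both lines. EIF3F and EIF3H were both under 1 TPM in all libraries and were left out of the test by the filter on low values (at least 1 TPM in at least 3 libraries).

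The factors that handle the initiator tRNA and the start codon had mean levels between 10 and 50 TPM. EIF5, which triggers GTP hydrolysis on eIF2 at the start codon, was at 28.8, 39.6 and 53.6 TPM in Dokana against 37.4, 26.9 and 85.7 TPM in Djasinga. Its highest value, in Djasinga replicate 3, was 2.30 times the mean of the other 5 libraries, and the lines overlapped. EIF5B, which joins the large subunit, was at 17.1 ± 4.81 and 12.5 ± 2.72 TPM. The 4 measured subunits of eIF2B, the factor that recharges eIF2 with GTP, lay close together. EIF2B1 stood at 17.7 ± 3.47 (Dokana) and 15.8 ± 2.16 TPM (Djasinga), EIF2B4 at 15.7 ± 2.78 and 13.7 ± 2.74, EIF2B3 at 13.1 ± 2.14 and 8.73 ± 0.643, and EIF2B2 at 11.9 ± 0.795 and 8.94 ± 0.477 TPM. EIF2AK4 (GCN2), the eIF2 kinase that senses uncharged tRNA, was at 22.6 ± 1.63 and 19.4 ± 5.83 TPM, and was the single eIF2 kinase of 4 with a paired transcript.

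EIF6, which keeps the large ribosomal subunit from joining too early, stood at 60.0 ± 10.9 (Dokana) and 51.9 ± 1.18 TPM (Djasinga). EIF5A2, the less common relative of EIF5A, was at 2.82 ± 0.264 and 2.13 ± 0.558 TPM. Of the elongation factors, EEF1B2 and EEF1D were measured, both parts of the exchange complex that recharges eEF1A. EEF1B2 was at 42.6, 45.2 and 52.2 TPM in Dokana against 42.6, 35.8 and 52.7 TPM in Djasinga. EEF1D was at 47.4, 40.3 and 43.2 TPM and at 41.1, 38.2 and 40 TPM. The values of EEF1B2 and of EEF1D overlapped between the lines, and also with each other. EEF1AKMT1, a lysine methyltransferase of eEF1A, was at 3.29 ± 1.1 and 2.59 ± 1.09 TPM. The release factor ETF1 (eRF1), which reads stop codons, was at 65.3 ± 11.7 and 53.1 ± 11.7 TPM. Its GTPase partner GSPT2 (eRF3b) was at 41.3 ± 10.5 and 30.3 ± 3.51 TPM, while GSPT1 had no paired transcript.

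Cytosolic synthetases stood above mitochondrial synthetases in all 6 libraries. Of 18 cytosolic and 17 mitochondrial synthetase genes, 7 and 9 were measured. The median cytosolic level was 30.8, 31.0 and 36.9 TPM in Dokana and 26.4, 23.3 and 23.0 TPM in Djasinga. The median mitochondrial level was 8.85, 8.5 and 10.1 TPM in Dokana and 7.84, 6.61 and 7.46 TPM in Djasinga. On the log2(TPM + 1) scale the medians were 1.74 ± 0.043 apart in Dokana and 1.60 ± 0.090 apart in Djasinga (SD, n = 3). The summed cytosolic level was 2.85 ± 0.115 times the mitochondrial sum in Dokana and 2.89 ± 0.207 times in Djasinga. The classes still overlapped: 5 of 7 cytosolic genes had a mean above every mitochondrial gene, and 7 of 9 mitochondrial genes had a mean below every cytosolic gene. No test was made of this difference, since the genes of a library are not replicates, and GARS1 and KARS1, which serve both compartments, had no paired transcript. The sums are partial, and the share of listed transcripts that could be paired differed between genes of the 2 classes. Its part in the distance was not tested.

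Within the cytosolic class, the threonine enzyme TARS1 and the asparagine enzyme NARS1 were highest, and the histidine enzyme HARS1 and the tryptophan enzyme WARS1 lowest. TARS1 was at 66.7, 52.7 and 78.3 TPM in Dokana against 50.2, 42.4 and 50.9 TPM in Djasinga. NARS1 was at 57.3 ± 9.86 and 43.9 ± 7.77 TPM, AARS1 (alanine) at 34.8 ± 6.48 and 27.9 ± 4.10 TPM, and VARS1 (valine) at 30.0 ± 4.69 and 23.2 ± 2.06 TPM. SARS1 (serine) was at 34.2, 31.0 and 36.9 TPM and at 26.4, 19.9 and 19.3 TPM, with no overlap between the lines. WARS1 was at 12.9 ± 3.45 and 10.3 ± 3.21 TPM and HARS1 at 12.4 ± 1.32 and 9.68 ± 1.29 TPM. These 2 fell within the range of the mitochondrial enzymes. AIMP1 and AIMP2, scaffold proteins of the complex that holds several cytosolic synthetases together, were at 23.9 ± 4.94 and 26.5 ± 3.49 TPM in Dokana against 18.7 ± 1.18 and 19.8 ± 3.74 TPM in Djasinga. None of the 8 synthetases fixed as parts of that complex had a paired transcript.

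The mitochondrial class was led by NARS2 (asparagine) at 17.5 ± 2.13 and 12.4 ± 1.14 TPM and LARS2 (leucine) at 15.4 ± 3.28 and 9.79 ± 2.09 TPM. CARS2 (cysteine), EARS2 (glutamate) and TARS2 (threonine) were at 11.3 ± 0.944, 9.30 ± 0.987 and 8.76 ± 0.912 TPM in Dokana against 8.41 ± 0.576, 8.31 ± 0.415 and 6.56 ± 0.826 TPM in Djasinga. FARS2 (phenylalanine), VARS2 and WARS2 were at 8.14 ± 2.42, 6.51 ± 1.77 and 7.05 ± 0.909 TPM in Dokana against 5.59 ± 1.65, 6.70 ± 1.59 and 5.14 ± 0.604 TPM in Djasinga. The arginine enzyme RARS2 was lowest, at 2.76, 2.02 and 3.36 TPM in Dokana and 0.805, 0.664 and 1.21 TPM in Djasinga, from 2 of the 17 transcripts listed for it. Its libraries did not overlap with those of WARS2, the next enzyme above it.

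For 4 of 14 amino acids both the cytosolic and the mitochondrial enzyme were measured, and the cytosolic enzyme was higher in all 24 library values. The distance differed between amino acids. TARS1 was 7.47 ± 0.696 times TARS2 in Dokana and 7.39 ± 1.35 times in Djasinga (SD, n = 3). VARS1 was 4.88 ± 1.56 and 3.61 ± 0.968 times VARS2, NARS1 3.27 ± 0.192 and 3.54 ± 0.468 times NARS2, and WARS1 1.80 ± 0.262 and 2.07 ± 0.903 times WARS2. Ratios of TARS1 to TARS2 lay above those of the other 3 amino acids in every library, and the lines overlapped for each of the 4 ratios. These ratios compare partial sums. Of the listed transcripts, 1 of 3 was paired for TARS1 and 1 of 10 for TARS2. For VARS1 and VARS2 it was 1 of 3 and 1 of 5, and for NARS1 and NARS2 1 of 2 and 1 of 6. WARS1 and WARS2 had 1 of 3 each. The part of uneven pairing in the ratios was not tested.

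**Figure D2:**
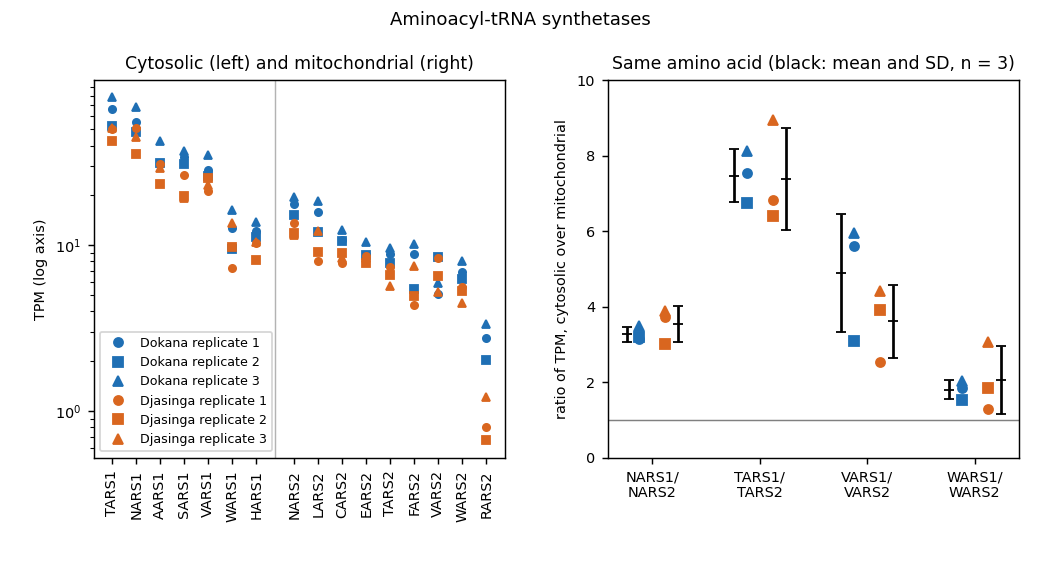
Left, TPM (log axis) of 7 cytosolic and 9 mitochondrial synthetases, a point per library. Right, ratio of cytosolic to mitochondrial TPM for the 4 amino acids with both enzymes measured, with mean and SD of 3 libraries in black; all ratios lie above the line at 1, from 1.29 for tryptophan to 8.93 for threonine.

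Between the lines, none of the 40 tested genes passed the threshold (limma on log2(TPM + 1), Benjamini-Hochberg adjusted p under 0.05 over 6255 genes, of which 22 or 0.352% passed). The smallest adjusted p among the 40 was 0.221, for RARS2 (limma). With p under 0.05 before adjustment, 7 genes (17.5%) were lower in Djasinga, against 13.9% of all genes, and 0 were higher, against 0.895%. The 7 were RARS2, SARS1, EIF2B3, NARS2, EIF4E, LARS2 and EIF3C. The whole table leaned the same way. The median gene differed by -0.29 on the log2 scale, Djasinga minus Dokana, and the median of the 40 genes by -0.36, with 38 of 40 below 0. After median-ratio scaling, which sets the median gene near 0, the median of the 40 was -0.019 and 23 were below 0, and 20 genes of the whole table (0.32%) passed, 0 of them among the 40. Before adjustment, 1 of the 40 (2.5%, RARS2) was then lower with p under 0.05 against 3.87% of all genes, and 0 were higher against 3.39%. The 22 genes called divide into 11 higher and 11 lower in Djasinga, after median-ratio scaling into 13 and 7, and after quantile normalization into 14 and 6. With the replicate number as a block 5 genes (0.0799%) passed, again with 0 of the 40 (smallest limma adjusted p 0.303).

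In 15 of the 40 genes (37.5%) every Djasinga library lay below every Dokana library, which held for 24.5% of all genes tested; the reverse held for 0 of the 40 and 1.18% of all genes. After median-ratio scaling this held for 3 genes (7.5%), RARS2, EIF4E and NARS2, against 7.1% of all genes. EEF1D, EIF6 and EARS2 then stood higher in Djasinga without overlap (7.5% against 6.19%). The shares after scaling are near the background, and the 37.5% before it is above. That background was not matched for level. When the filter was raised to 5 TPM, the median log2 difference was -0.371 for the members and -0.356 for all genes. A pseudocount of 0.1 gave -0.381 and -0.363, and leaving the filter out gave -0.344 and -0.111. The part of level in the 37.5% was not tested.

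**Figure D3:**
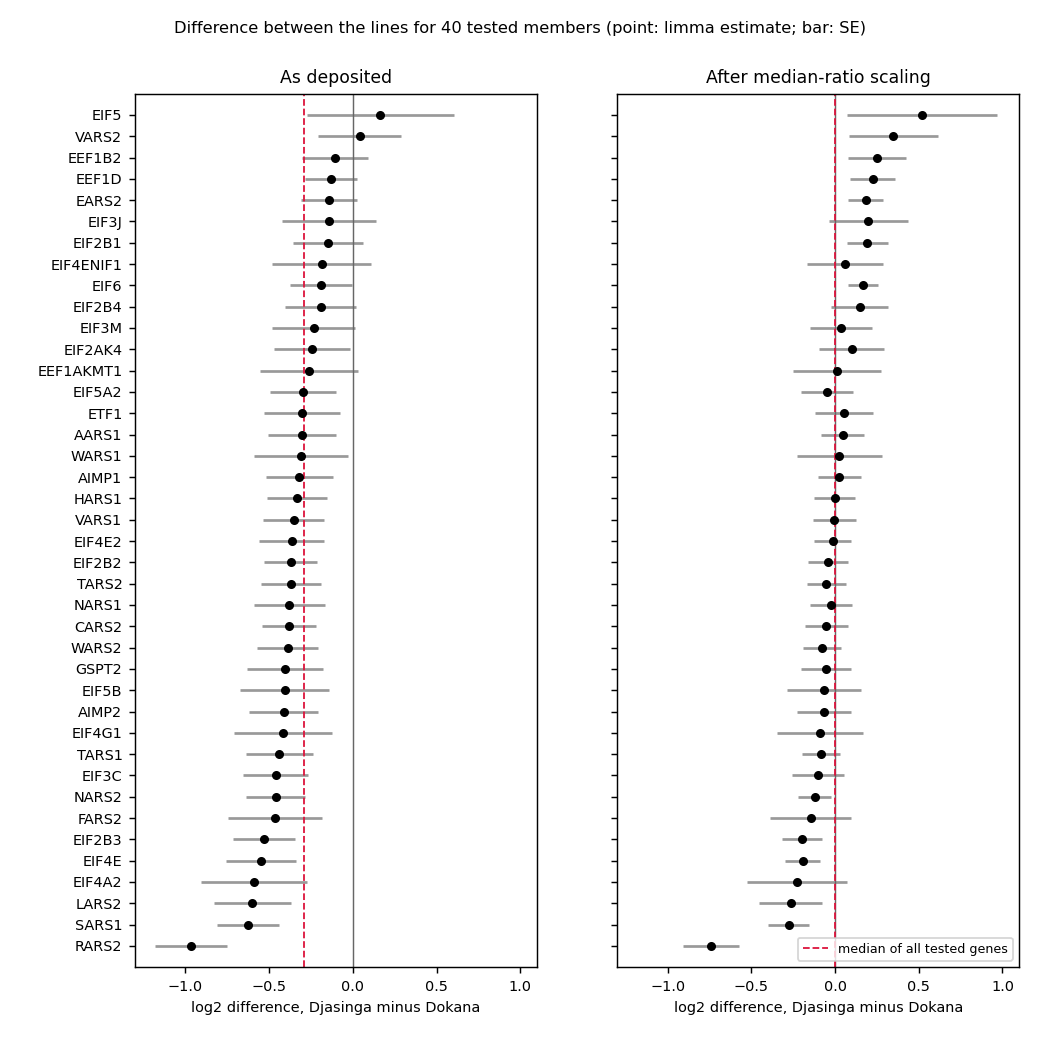
Log2 difference between the lines (Djasinga minus Dokana, log2(TPM + 1)) with its SE for the 40 tested genes, as deposited on the left and after median-ratio scaling on the right. The dashed line is the median of 6255 genes, at -0.29 on the left; RARS2 lies farthest below it.

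RARS2 had the lowest difference of the 40, at -0.97 (SE 0.22) on the log2(TPM + 1) scale, or -0.67 from the median gene (adjusted p by limma 0.221). By mean TPM, Dokana stood 3.04 times higher than Djasinga, and after median-ratio scaling the difference was -0.74 (SE 0.17, limma adjusted p 0.340). RARS2 met the filter of at least 1 TPM in at least 3 libraries through Dokana. In Djasinga it was near that floor, at 0.805, 0.664 and 1.21 TPM, and its difference and p-values carry this limit. It passed when protein-coding genes alone were tested (limma adjusted p 0.0371, 1 of 40 against 0.943% of 5089 genes) and not when they were also scaled (0.260). The 48 genes called among protein-coding genes alone divide into 9 higher and 39 lower in Djasinga. Over the alternatives in which RARS2 was tested, its limma adjusted p ran from 0.0371 to 0.598. With the filter at 5 TPM it was not tested. SARS1, LARS2, EIF4A2 and EIF4E followed at -0.33, -0.31, -0.29 and -0.25 from the median gene (adjusted p by limma 0.302, 0.326, 0.369 and 0.326). At the other end stood EIF5, VARS2, EEF1B2, EEF1D and EARS2 at 0.46, 0.34, 0.19, 0.17 and 0.15 from the median gene (adjusted p by limma 0.819, 0.914, 0.747, 0.618 and 0.607). The differences of EIF4A2 and EIF5 rest on Djasinga replicate 3: without it they were 0.039 and -0.028 relative to the median gene, each with the other sign. Other differences also moved by over 1.5 times when a library was left out. EEF1B2 was 0.028 without Djasinga replicate 3 and 0.31 without Djasinga replicate 2, and EEF1D was 0.065 without Dokana replicate 3. LARS2 was -0.15 without Djasinga replicate 1 and -0.48 without Djasinga replicate 3. VARS2 was 0.60 without Dokana replicate 2 and 0.21, 0.20 and 0.22 without Dokana replicate 1, Dokana replicate 3 and Djasinga replicate 1. EIF4A2 was -0.53 without Djasinga replicate 1, and EIF5 was 0.26 without Dokana replicate 1 and 0.79 without Djasinga replicate 2. RARS2, SARS1, EIF4E and EARS2 moved by less than 1.5 times under each library left out. Apart from RARS2 and EIF5 (0.52), the other 38 genes lay between -0.28 and 0.35 after scaling.

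Both synthetase classes had median differences near the shift of the median gene. The median difference was -0.35 over the 7 cytosolic and -0.39 over the 9 mitochondrial enzymes, and -0.0036 and -0.079 after median-ratio scaling. Unadjusted p-values under 0.05 with lower levels in Djasinga numbered 1 of 7 (SARS1) and 3 of 9 (RARS2, NARS2, LARS2), against 13.9% of all genes. After scaling they numbered 0 and 1 (RARS2), against 3.87%. For eIF2B the median difference of 4 genes was -0.28, or 0.053 after scaling. EIF2B3 had an unadjusted limma p of 0.0235, or 0.147 after scaling. For the 4 eIF4 factors the median difference was -0.48, or -0.14 after scaling. EIF4E had an unadjusted limma p of 0.0340, or 0.115 after scaling.

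As deposited, the median deviation of the 40 genes was farthest from 0 in Dokana replicate 3, at 0.42 against 0.34 for all genes. In Djasinga replicate 3 it was -0.036 against -0.14. After median-ratio scaling, Djasinga replicate 3 was the library in which the set lay farthest from its 6-library median. With this scaling, 19 of the 40 genes (47.5%) had their highest value there, as did 26.2% of all genes tested. The median deviation of the 40 genes was 0.11 there on the log2 scale, against -0.00084 for all genes, while in the other 5 libraries it lay between -0.067 and 0.013. EIF5 lay 1.31 above and EIF4A2 0.87 below their own 6-library medians in this library (the latter a deviation of -0.87), and the methyltransferase EEF1AKMT1 lay 0.60 above. In this library 7.5% of the 40 genes deviated by more than 0.5, against 21.1% of all genes tested. Djasinga replicate 1 had 4 such genes (10%, against 16.8% of all genes): EIF2AK4 at 0.53, LARS2 at -0.54, WARS1 at -0.52 and RARS2 at -0.55. The spread between libraries of a line was a median SD of 0.173 on the log2 scale for the 40 genes and 0.199 for 4042 protein-coding genes within the same range of levels. It was smallest for EIF6 (0.0487) and largest for EIF5 (0.660).

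**Figure D4:**
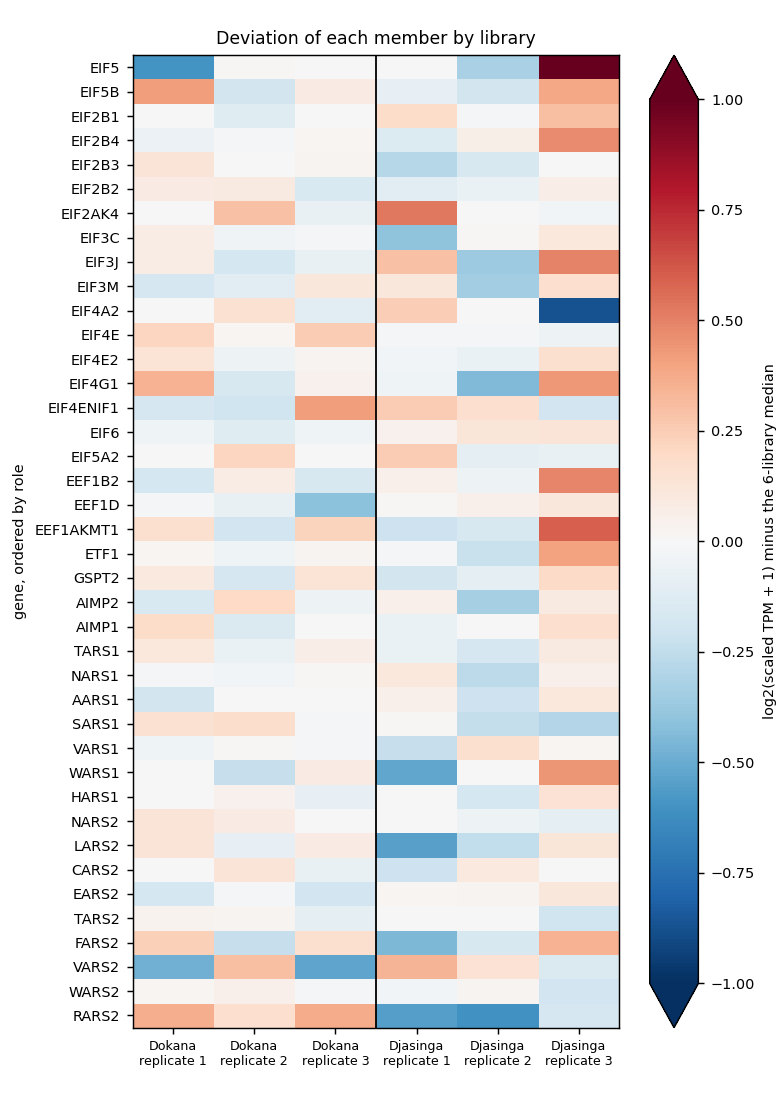
Colour shows log2(median-ratio scaled TPM + 1) minus each gene's 6-library median, for 40 genes ordered by role and 6 libraries; red is above and blue below, and values beyond 1 are drawn at the end of the scale. EIF5 (1.31) and EIF4A2 (-0.87) in Djasinga replicate 3 are the strongest cells.

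Single transcripts were also tested, since a gene's sum can hide a shift between its isoforms. Of the 66 transcripts paired with these genes, 54 could be tested, and 0 passed (limma adjusted p under 0.05 over 22561 transcripts, of which 1.03% passed; smallest adjusted p 0.180, for the main RARS2 transcript). Before adjustment, 7 had p under 0.05 and lay lower in Djasinga (13.1% of all transcripts did) and 0 lay higher (1.4%). Among the 7 was 1 of the 5 transcripts of EIF4E2. That transcript, XM_024242995, was at 14.6, 13 and 14.4 TPM in Dokana against 9.53, 9.35 and 8.61 TPM in Djasinga. As deposited its lines did not overlap (limma adjusted p 0.251, or 0.746 after median-ratio scaling). The log2 difference was -0.56, or -0.29 from the median transcript. Another, XM_024242990, was at 15.6, 8.52 and 17.8 TPM and at 11.4, 10.2 and 13.4 TPM, and overlapped.

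In Djasinga replicate 3 the mix of isoforms of EIF6 and EIF4A2 differed from the other libraries. The EIF6 transcript XM_009233537 held 52.8%, 66.1% and 65.4% of the gene's TPM in Dokana and 66.7%, 54.0% and 30.2% in Djasinga, while XM_002830246 had its highest share there, 68.4%. The sum of EIF6 was 53.3, 51.0 and 51.4 TPM in the 3 Djasinga libraries. For EIF4A2, the transcript NM_001135289 held 69.8% to 72.9% of the gene in the other 5 libraries and 56.1% in Djasinga replicate 3. Neither EIF6 transcript passed between the lines (limma adjusted p 0.429 for XM_009233537 and 0.832 for XM_002830246). These shares of a single library have no replicate.

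**Figure D5:**
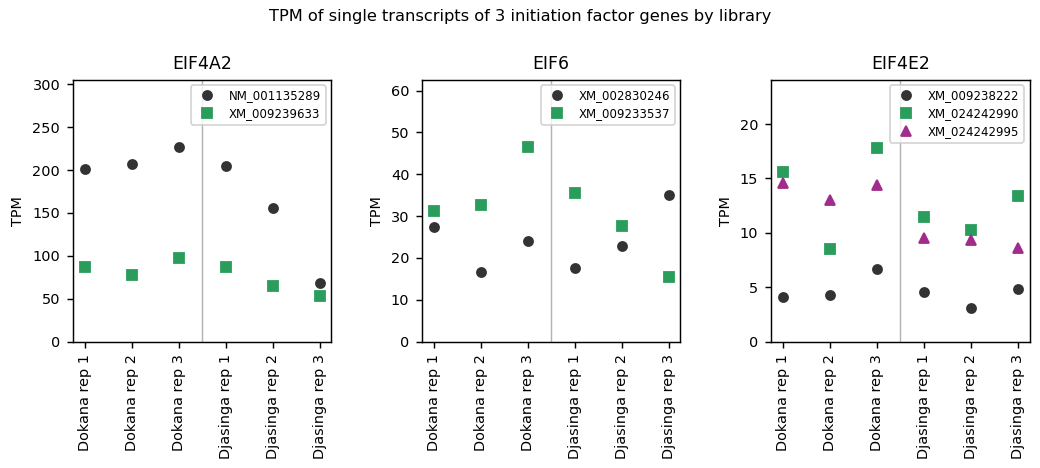
TPM of the tested transcripts of EIF4A2, EIF6 and EIF4E2 in each library, with a vertical line between Dokana on the left and Djasinga on the right. In Djasinga replicate 3 the order of the EIF6 transcripts is the reverse of that in Dokana, and both EIF4A2 transcripts are at their lowest.

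Other genes of the pathway were taken from lists drawn up by function. Of 14 mitochondrial translation factors 8 were measured and 7 tested, with 0 called and a median difference of -0.34. GATB, a subunit of the enzyme that makes glutaminyl-tRNA in mitochondria, is named after its values were seen: it was at 7.67, 4.70 and 7.0 TPM in Dokana against 0.154, 3.33 and 2.63 TPM in Djasinga, without overlap (log2 difference -1.48, SE 0.50, limma adjusted p 0.324). Of 24 other cytosolic translation genes 5 were tested, with 0 called and a median of -0.34. PABPC4, a poly(A)-binding protein, was highest of them at 72.1 ± 14.2 and 62.0 ± 1.15 TPM. Of 20 targets of the integrated stress response, through which the eIF2 kinases act, 6 were tested, with 0 called and a median of -0.37. ASNS, the asparagine synthetase, was at 134 ± 30.5 and 89.5 ± 14.2 TPM and PHGDH, which starts serine synthesis, at 125 ± 20.5 and 82.0 ± 4.77 TPM, while DDIT3 (CHOP) was at 1.54 ± 1.25 and 1.70 ± 1.28 TPM. Of 15 genes that link mTOR to translation 6 were tested, with 0 called and a median of -0.35, and MTOR itself was at 17.2 ± 3.84 and 11.9 ± 1.38 TPM. All 4 medians lie near the -0.29 of the median gene.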

How the data were processed

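RNA-seq values of 6 libraries, 3 per line, were used as the authors deposited them: TPM for 58409 transcripts, per the file headers, a share of each library without read depth. The submitters' processing notes name STAR, StringTie, FastQC 0.11.9 and Trimmomatic 0.39 and give no roles. Build and annotation are not given in sources used here. Gene symbols were looked up in RefSeq (assembly NHGRI_mPonAbe1-v2.0) and matched by accession without version (22112 of 43705 RefSeq transcripts, 50.6%), and TPM was summed per symbol. Genes or transcripts reaching 1 TPM in 3 or more libraries were tested with limma-trend on log2(TPM + 1), Djasinga minus Dokana, without a block, calling an adjusted p (Benjamini-Hochberg) under 0.05. The pseudocount makes differences of low genes too small. The fits were checked on simulated data.

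The labels give the replicate number under a batch tag, so it was taken to pair libraries in the alternatives with a block, and not in the main fit. Across genes, the correlation between deviations sharing a number was -0.093, -0.13 and 0.152. Between libraries of the lines with unlike numbers it ran from -0.19 to 0.268. The members were found by a rule on symbols, and the set and the lists were picked with earlier results of these data known. Differences are given for the 5 highest and 5 lowest members, and levels for the most abundant, for the highest and lowest of each role and for the synthetases; single transcripts and outlying values were chosen after their values were seen. Alternatives covered the block, each library left out, filters, scaling, the pseudocount, limma settings and gene classes. Python 3.11.15, pandas 2.3.3, numpy 2.4.6, matplotlib 3.10.9, R 4.3.3 and limma 3.58.1 were used.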

Additional observations from a re-analysis of the deposited data

How the results depend on the processing

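Under every alternative run, 0 member genes and 0 member transcripts passed, except that 1 gene (RARS2) passed when protein-coding genes were tested alone; its cause was not tested. RARS2 met the filter on low values through its Dokana libraries and was near that floor in Djasinga. The number of all genes called, 22, was 5 with the replicate block, 10 with a pseudocount of 0.1, 9 with at least 5 TPM, 48 among protein-coding genes alone, 3 among these after median-ratio scaling, 1 with that scaling and the block and 3 with that scaling without Djasinga replicate 3. Leaving out a library gave 4 to 22 genes: 8, 6 and 7 without Dokana replicates 1, 2 and 3 and 13, 22 and 4 without those of Djasinga. The number of all transcripts called, 232, was 152 with the block, 107 with a pseudocount of 0.1, 99 without a filter, 103 with at least 5 TPM, 29 with median-ratio scaling and the block, 47 with that scaling without Djasinga replicate 3, and 37 to 186 with a library left out (70, 46 and 37 without those of Dokana, 186, 150 and 147 without those of Djasinga).

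The members' median difference of -0.36 was -0.019 after median-ratio scaling, with or without the block, -0.027 after quantile normalization, -0.068 with scaling and without Djasinga replicate 3, -0.098 rescaled without the most abundant transcript (16.9% to 42.4% of a library), -0.011 in protein-coding genes after scaling, and -0.44 to -0.25 with a library left out. Relative to the median gene, EIF4A2 changed sign without Djasinga replicate 3 (0.039, and 0.10 after scaling; -0.53 to 0.039 with a library left out), EIF5 without that library (-0.028; range -0.028 to 0.79), and EARS2 (-0.031) and EEF1D (-0.018) without a filter. The distance of cytosolic from mitochondrial synthetases, 1.74 in Dokana and 1.60 in Djasinga, was 1.83 and 1.72 with a pseudocount of 0.1 and 1.86 and 1.70 over amino acid pairs. From summed TPM it was 1.51 in Dokana and 1.53 in Djasinga, so the lines stood in the other order. By medians it was 1.72 to 1.76 and 1.57 to 1.65 with a library left out. Leaving out GARS1 and KARS1 changed nothing, as neither was measured. The scaling, block and library alternatives run in combination, and the one without the most abundant transcript, were chosen after seeing the data. The block changed no member's call. TPM keeps no depth, so counting error cannot be given.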
